A study of Mus musculus with 14 samples.

Results

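Esr1, Gata3, Foxa1, Elf5, Prlr, Stat5a and Stat5b, 7 genes known as regulators of the luminal cells of the mammary gland, were followed through 14 RNA-seq libraries of mouse mammary epithelial cells. They were chosen by gene symbol from the 23284 genes listed in each of 2 tables of FPKM, a count of fragments scaled to transcript length and library size, and all 7 were found in both. EpH4 cells are an epithelial line from mouse mammary gland, from which EpRas cells were derived by transformation with H-Ras. Each line was grown for 48 h with 1 ng/ml TGF-β3 (called TGF-β below) or without it, with 2 libraries for each of these 4 groups. EpRas cells transfected with a negative control siRNA (siNC) or with siRNA pair 1 or siRNA pair 2, each holding 1 siRNA to Etv4 and 1 to Etv5, also with and without TGF-β, gave 6 further libraries, 1 for each condition. EpH4 cells were kept in 10% and EpRas cells in 4% fetal bovine serum, so transformation, serum and any drift between the lines cannot be told apart in a comparison of the lines. Each line is a single transformed or parental line in culture, without the stroma and the hormones of a gland.

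The inner, luminal layer of the mammary epithelium holds hormone-sensing cells and the alveolar cells that make milk. Esr1 encodes the estrogen receptor α, and Foxa1 and Gata3 encode DNA-binding proteins that act with it in hormone-sensing cells, Foxa1 as a pioneer factor that opens chromatin and Gata3 as a factor needed for luminal cells to form and persist. In alveolar cells prolactin binds its receptor, encoded by Prlr, and the kinase Jak2 then activates Stat5a and Stat5b, which switch on milk protein genes. Elf5 encodes an ETS family factor of alveolar progenitors that works beside Stat5a.

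The 7 genes fell into 3 levels. Gata3, Stat5b and Stat5a were expressed in every library, in the sense that the lower end of the interval that Cuffdiff gives for the FPKM was above 0 in all 8 untransfected and all 6 siRNA libraries. Among all genes this held for 33.2% in the untransfected table and for 38.6% in the siRNA table. Esr1 and Foxa1 lay around 1 FPKM. The lower end for Esr1 was above 0 in 1 of 8 untransfected and 4 of 6 siRNA libraries, and that for Foxa1 in 0 of 8 and 1 of 6. Elf5 and Prlr were near-absent, with a lower end of 0 in all 14 libraries. In EpH4 cells without TGF-β, 82.9% of the genes in the table lay below Gata3, 76.4% below Stat5b, 64.5% below Stat5a, 57.4% below Foxa1 and 56.4% below Esr1.

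Markers of the luminal and basal layers were mixed. Of the luminal keratins, Krt8 lay between 561 and 1360 FPKM and Krt18 between 868 and 1450 FPKM in the untransfected libraries, whereas Krt19 was listed at 0 in all 4 EpH4 libraries and lay between 17.1 and 37.4 FPKM in EpRas cells. Of the basal keratins, Krt5 did not exceed 0.0856 FPKM and Krt14 lay between 62.2 and 851 FPKM. Vim, which encodes the mesenchymal filament protein vimentin, lay between 0.769 and 1.88 FPKM in EpH4 and between 915 and 1160 FPKM in EpRas cells. The milk protein genes Csn2, Wap and Lalba were listed at 0 in all 14 libraries, while the highest Csn3 value was 0.244 FPKM among EpH4 and 6.97 FPKM among EpRas libraries. Of 11 immune, endothelial and adipocyte markers in the tables, 5 were at 0 in all untransfected libraries, among them Ptprc of leukocytes and Pecam1 of endothelium. The macrophage marker Cd68 lay between 0.293 and 7.13 FPKM and Fabp4 of adipocytes between 0.342 and 8.13 FPKM, and the list summed to 7.54 to 10.2 FPKM in EpH4, 1.31 to 5.74 in EpH4 with TGF-β, 5.22 to 6.35 in EpRas and 4.96 to 7.85 FPKM in treated EpRas libraries. The summed FPKM of 9 fibroblast markers, with Col1a1 as the main part in EpH4 cells, was 22.7 to 26.8 in EpH4 cells, 222 to 247 in EpH4 cells with TGF-β, 12.3 to 13.6 in EpRas cells and 8.42 to 11.1 in EpRas cells with TGF-β, and 3 of the 9 were at 0 throughout; the part of these in the results below was not tested. The FPKM of most genes here were whole multiples of the value of 1 read, from which the smallest read numbers that fit were recovered. Relative depth spanned 0.609 (EpRas replicate 1) to 1.36 (EpH4 replicate 2) in the untransfected libraries, with EpH4 replicate 1 set to 1. Intervals made from read numbers cover counting error only.

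**Figure D1:**
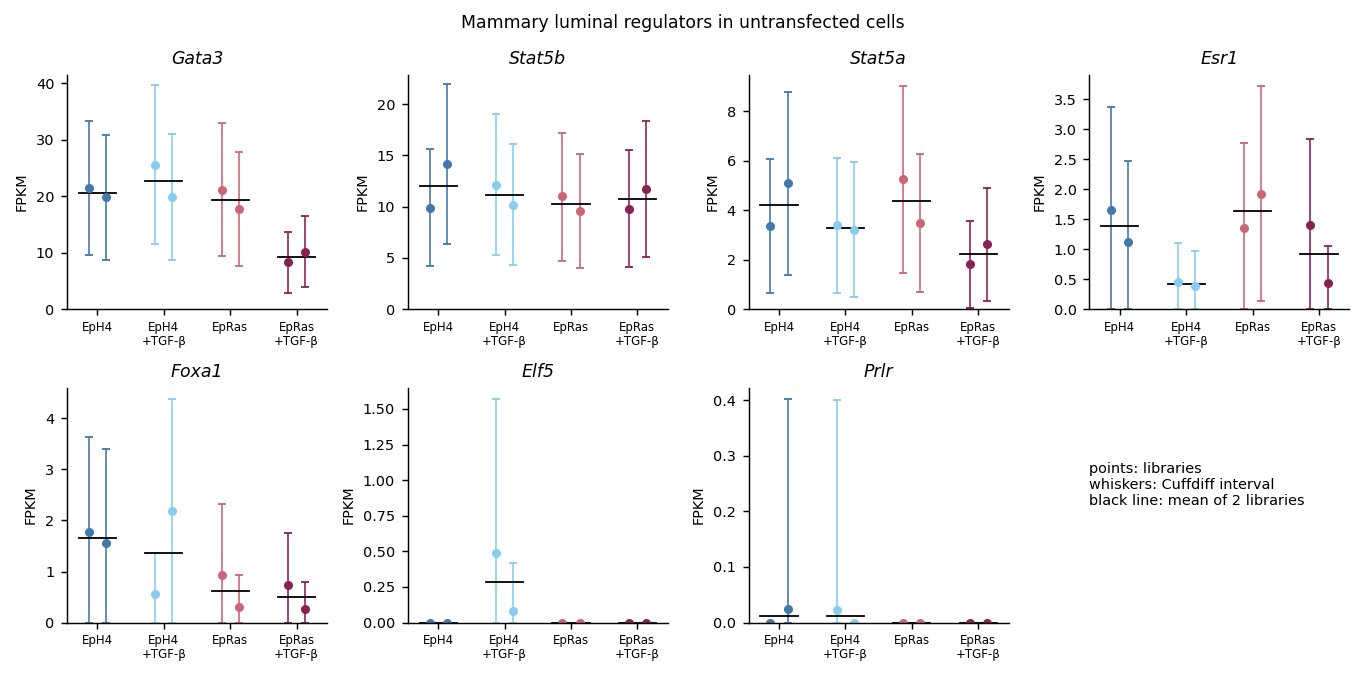
FPKM of the 7 genes (vertical axes, linear, a different scale for each gene) in the 8 untransfected libraries, grouped by line and TGF-β on the horizontal axes. Points are libraries, whiskers the Cuffdiff interval and black lines the mean of 2 libraries. Gata3 in EpRas cells with TGF-β, at 8.30 and 10.2 FPKM, lies below all other libraries, while Elf5 and Prlr stay under 0.5 FPKM.

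Gata3 had the highest mean of the 7 genes in every untransfected group but EpRas with TGF-β, where Stat5b was higher, and was the only one with called changes. It lies on chromosome 2 (chr2:9857078-9878600 in mm10, minus strand). In the GENCODE annotation, where the gene extends to base 9890034, its exons overlap 9230102O04Rik on the same strand and Gm13256 on the opposite strand. Whether the overlap lies within the counted stretch, and so whether reads from these were counted with it, was not checked. It was at 21.5 and 19.8 FPKM in EpH4 cells (380 and 475 reads) and at 25.6 and 19.9 FPKM in EpH4 cells with TGF-β (327 and 378 reads). EpRas cells had 21.1 and 17.7 FPKM (228 and 356 reads), and under TGF-β they had 8.30 and 10.2 FPKM (126 and 120 reads). The 6 libraries of the other groups overlapped each other, and both libraries of EpRas cells with TGF-β were below every one of them. By group mean ± SD (n = 2), the order was EpH4 with TGF-β at 22.7 ± 4.04, EpH4 at 20.6 ± 1.19, EpRas at 19.4 ± 2.40 and EpRas with TGF-β at 9.23 ± 1.32 FPKM, and only the last step separated the libraries. In bulk RNA such as this, fewer cells with a transcript and less of it per cell cannot be told apart.

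Tests were made with limma on log2(FPKM + 1) over 9100 genes, two-sided, with Benjamini-Hochberg adjustment over all of them, so fold changes are on that scale. The comparisons share libraries, so their calls are not independent of each other. Gata3 was lower in EpRas than in EpH4 cells under TGF-β, by -1.21 (SE 0.19) on the log2 scale with an adjusted p of 0.00423. It was the only member called in this comparison, in which 12.3% of the tested genes were called lower and 21.3% in either direction. The call held in all 18 alternative limma fits, with adjusted p from 0.00295 to 0.0450. Without TGF-β the same difference was -0.09 (SE 0.19, adjusted p = 0.797), and none of the tested members was called where 17.6% of the genes were. By the unadjusted p under 0.05, 32.6% of the tested genes but no member passed in the comparison without TGF-β.

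TGF-β lowered Gata3 in EpRas cells by -1.0 (SE 0.19, adjusted p = 0.0332 by limma), both treated libraries lying below both untreated ones. Gata3 was again the only member called, where 3.82% of the genes were called and 1.92% called lower. This call stood close to the threshold. The call of Gata3 was lost when only the 4 EpRas libraries were fitted (adjusted p = 0.181), with a replicate block (0.0702) and when any single library other than EpRas with TGF-β replicate 2 was left out (0.0643 to 0.219, against 0.0469 without that library). In EpH4 cells the effect was 0.13 (SE 0.19, adjusted p = 0.741), and 0 members were called where 9.4% of the genes were; 0 members also had an unadjusted p under 0.05, as 23.9% of the genes did. The difference between the effects in the lines was -1.13 (SE 0.27, unadjusted p = 0.00358) and did not pass adjustment (adjusted p = 0.165), so that 0 of the 3 tested members were called where 0.802% of the genes were, and 1 (Gata3) had an unadjusted p under 0.05, as 10.9% of the genes did.

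**Figure D2:**
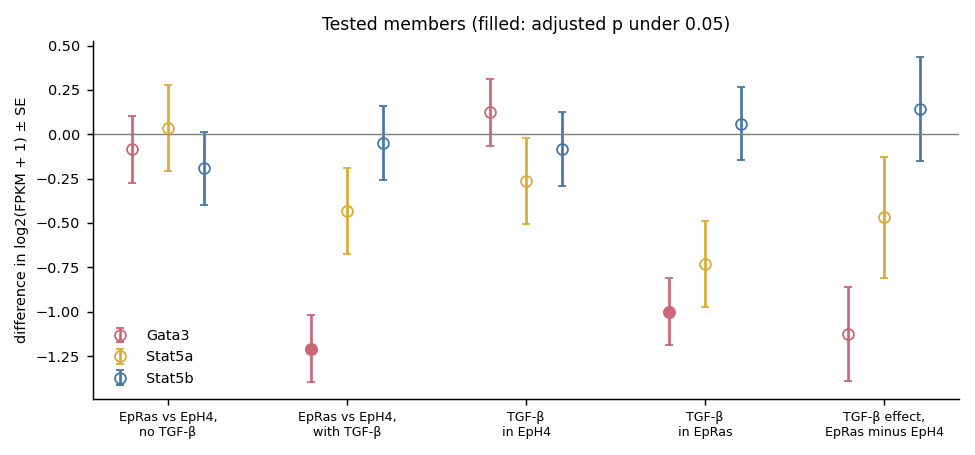
Differences in log2(FPKM + 1) from limma (vertical axis, with SE as whiskers) for Gata3, Stat5a and Stat5b in 5 comparisons (horizontal axis), 2 libraries a group. Filled points passed an adjusted p of 0.05, as Gata3 did under TGF-β in EpRas against EpH4 cells (-1.21) and for TGF-β in EpRas cells (-1.0), and no other point did.

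The pattern of Gata3 over the 8 libraries was most like those of Tmem79, Ephb3 and Akap2, with Pearson's r on log2(FPKM + 1) of 0.966, 0.965 and 0.964, given as a description without a test. Ephb3, a receptor tyrosine kinase for ephrins, lay between 9.45 and 13.4 FPKM in the other groups and at 3.67 and 4.21 FPKM in treated EpRas cells. Akap2, an anchoring protein for protein kinase A, lay between 15.9 and 17.4 FPKM and then at 7.88 and 8.82 FPKM. Tmem79 lay between 23.1 and 36.6 FPKM and then at 13.7 and 17.3 FPKM. In all 3, as in Gata3, both libraries of EpRas cells with TGF-β were the lowest of the 8.

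**Figure D3:**
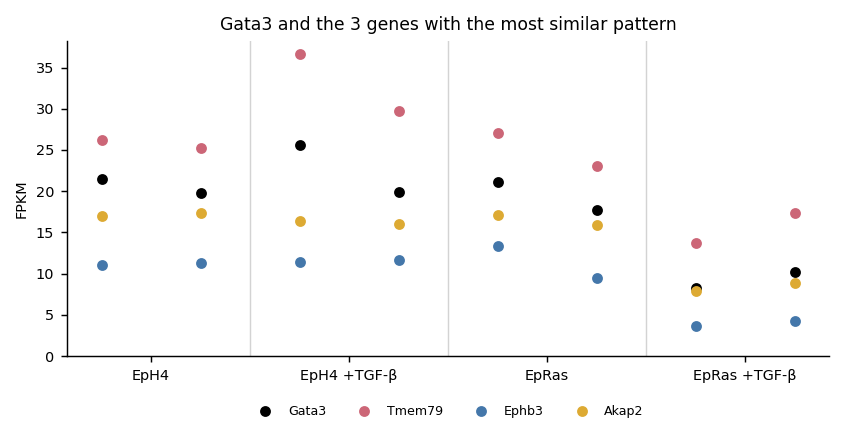
FPKM (vertical axis, linear) of Gata3 and of the 3 tested genes with the highest Pearson's r to it, in the 8 untransfected libraries (horizontal axis, 2 points per group). Each point is a library, and in EpRas cells with TGF-β all 4 genes reach their lowest values, 8.30 and 10.2 FPKM for Gata3.

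Of 13 relatives, partners and cofactors of Gata3, 6 were tested and none was called in any of the 5 limma comparisons. Zfpm1, which encodes the cofactor FOG1, lay between 9.50 and 15.6 FPKM in the untransfected libraries. Among 22 other luminal transcription factors 11 were tested. In EpRas against EpH4 cells 1 was called higher and 3 lower without TGF-β, and 0 higher and 4 lower with it, where 17.6% and 21.3% of all genes tested were called, with a median log2 difference of -0.47 under TGF-β beside -0.01 over all genes tested. Of these calls Xbp1 (the 1 higher) and Notch1 were among those lost in alternative fits, and Elf3 and Grhl2 were lost in 0. Elf3, an epithelial ETS factor, was at 18.0 and 19.6 FPKM in EpH4, 11.6 and 11.9 in EpH4 with TGF-β, 7.88 and 6.51 in EpRas and finally 3.54 and 2.79 FPKM when EpRas cells had been treated. It differed between the lines by -1.28 (SE 0.17, adjusted p = 0.00259) without and -1.62 (SE 0.17, adjusted p = 0.000577) with TGF-β. Grhl2, which keeps epithelial junction genes active, differed by -1.22 (SE 0.17, adjusted p = 0.00386) and -1.61 (SE 0.17, adjusted p = 0.000763). TGF-β itself was followed by 2 calls higher and 1 lower in EpH4 cells (9.4% of all genes called) and by 0 higher and 1 lower in EpRas cells (3.82%), the last being Elf3 at -0.98 (SE 0.17, adjusted p = 0.0212, up to 0.187 in alternative fits).

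Esr1 was low and its counts were small. It spans chr10:4612046-5003761 in mm10. It was at 1.65 and 1.13 FPKM in EpH4 cells (40 and 37 reads) and at 0.458 and 0.385 FPKM in EpH4 cells with TGF-β (8 and 10 reads), so that these groups did not overlap. In EpRas cells it was at 1.36 and 1.93 FPKM (20 and 53 reads), and with TGF-β at 1.40 and 0.434 FPKM (29 and 7 reads), where the treated libraries differed between themselves and overlapped the untreated ones. EpRas replicate 2, with 53 reads, was the only untransfected library in which the lower end of the Cuffdiff interval exceeded 0, at 0.142 FPKM. Counting intervals were 1.18 to 2.25 and 0.794 to 1.56 FPKM in the EpH4 libraries and 0.198 to 0.903 and 0.185 to 0.708 FPKM in the treated ones, so that EpH4 replicate 2 overlapped treated replicate 1. Esr1 stayed under the minimum of 5 FPKM for testing. In the limma fit without that filter, over 15244 genes, the difference with TGF-β was -0.74 in EpH4 cells (SE 0.27, unadjusted p = 0.0326, adjusted p = 0.185) and -0.50 in EpRas cells (SE 0.27, adjusted p = 0.486). Between the lines the differences were 0.15 (adjusted p = 0.805) without and 0.38 (adjusted p = 0.397) with TGF-β. The order of the group means was EpRas, EpH4, EpRas with TGF-β and EpH4 with TGF-β, and neighbours in it overlapped at each step.

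Known targets of the estrogen receptor ranged from silent to abundant. Pgr, which encodes the progesterone receptor, was listed at 0 in all 14 libraries, and Greb1 did not exceed 0.0334 FPKM in the untransfected ones. Of 18 target genes 12 were tested. EpRas cells had 4 called higher and 0 lower without TGF-β, and 7 higher and 1 lower with it, where 17.6% and 21.3% of all genes tested were called in either direction, among them Igfbp4, a binding protein of insulin-like growth factors, at 0.0913 and 0.0673 FPKM in EpH4 and 289 and 249 FPKM in EpRas cells. Of the 4, Nrip1 and Xbp1 were lost with a replicate block (adjusted p = 0.0534 and 0.0842) and without any 1 of the 4 untreated libraries (up to 0.138 and 0.178), which left 2. Of the 7, alternative fits were looked at for Igfbp4, Ret, Stc2, Nrip1 and Myc only. Myc was lost with a block (adjusted p = 0.0919), and Stc2 and Myc without either library of EpH4 with TGF-β. TGF-β was followed by 2 of the 12 called higher in each line, where 9.4% (EpH4) and 3.82% (EpRas) of all genes were called. The EpH4 calls were Ret and Xbp1, both lost with a replicate block (adjusted p = 0.0574 and 0.0784) and without any 1 of the EpH4 libraries (up to 0.165 and 0.240), and Ret also on FPKM + 5 (0.199). In EpRas cells the calls were the receptor tyrosine kinase Ret, from 3.77 and 2.34 to 17.9 and 24.4 FPKM (log2 difference 2.46, SE 0.23, adjusted p = 0.00174), and Areg, an EGF receptor ligand, from 18.5 and 23.6 to 53.7 and 55.3 FPKM (1.34, SE 0.17, adjusted p = 0.00590). Both calls were lost when only the 4 EpRas libraries were fitted (adjusted p = 0.0550 and 0.0967).

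Foxa1 was low in both lines, and no difference between its groups passed the test. It lies at chr12:57540632-57546121 in mm10, minus strand. It was at 1.77 and 1.56 FPKM in EpH4 cells (31 and 37 reads) and at 0.936 and 0.302 FPKM in EpRas cells (10 and 6 reads), without overlap. With TGF-β the EpH4 libraries lay far apart, at 0.553 and 2.18 FPKM (7 and 41 reads), and the EpRas libraries were at 0.731 and 0.257 FPKM (11 and 3 reads), overlapping the former. In the limma fit without the filter the lines differed by -0.74 (SE 0.38, adjusted p = 0.273) without and -0.59 (SE 0.38, adjusted p = 0.362) with TGF-β, and the effects of TGF-β were -0.26 in EpH4 and -0.11 in EpRas cells (adjusted p = 0.801 and 0.997). At 3 to 41 reads a library, a difference of the size seen between the lines was not resolved from the spread between replicates.

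Counted over the 7 genes, Foxa1 was the only one whose libraries did not overlap between the untreated lines, where 52.4% of the 15244 genes above 0 in any library did not. With TGF-β the lines did not overlap for Gata3, Stat5a and Elf5 (54.3% of all). The libraries with and without TGF-β did not overlap for Esr1 and Elf5 in EpH4 cells (49.8% of all) and for Gata3 and Stat5a in EpRas cells (34.2% of all). With 2 libraries a group such separation was thus common.

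Stat5b had no called change in the untransfected groups. It was at 9.88 and 14.2 FPKM in EpH4, 12.1 and 10.2 in EpH4 with TGF-β, 11 and 9.58 in EpRas and 9.79 and 11.7 FPKM in treated EpRas cells, from 185 to 533 reads a library. All groups overlapped. None of the 5 limma differences passed adjustment. They lay between -0.19 (SE 0.21, adjusted p = 0.572, EpRas against EpH4 without TGF-β) and 0.14 (SE 0.29, adjusted p = 0.891, the difference between the lines in the TGF-β effect).

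Stat5a, its neighbour on chromosome 11, was lower and more variable. It was at 3.37 and 5.09 FPKM in EpH4 cells and 3.39 and 3.21 in EpH4 cells with TGF-β. EpRas cells had 5.25 and 3.49 FPKM, and under TGF-β 1.81 and 2.63 FPKM were measured, below all other libraries. The difference made by TGF-β was -0.73 (SE 0.24, unadjusted p = 0.0185, adjusted p = 0.195 by limma) in EpRas cells and -0.26 (SE 0.24, adjusted p = 0.570) in EpH4 cells. Between the lines under TGF-β it was -0.43 (SE 0.24, adjusted p = 0.248). Stat5a and Stat5b lie head to head, chr11:100859351-100885169 and chr11:100780731-100850585 in mm10, with 8765 bases between them, and their sequences are so alike that reads could have been assigned to either. Exons of Stat5a also overlap those of Stat3 on the opposite strand in the GENCODE annotation, and whether the counting used the strand is not given in the sources used here. Stat3 was at 13.8 to 23.7 FPKM in the untransfected libraries, several times the level of Stat5a. Values of Stat5a are uncertain for both reasons. Gata3 and Stat5a thus had their lowest values in the same 2 libraries, and Stat5b did not. Among the genes most like Stat5a over the 8 libraries were Rarg (r = 0.975) and Ints3 (0.958), and those most like Stat5b were Clk2 (0.947), Flot2 (0.932) and Safb2 (0.931).

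Elf5 and Prlr, the ETS factor and the receptor of the alveolar lineage, were at the limit of detection. Elf5 was listed at 0 in 6 of 8 untransfected libraries, and was at 0.491 and 0.0825 FPKM in EpH4 cells with TGF-β, which corresponds to 4 reads and 1 read. A count of 0 allowed 0.241 and 0.327 FPKM in the EpH4 libraries and 0.288 to 0.536 FPKM in the EpRas libraries (upper ends of exact Poisson intervals). The intervals of the 4 reads and the 1 read, 0.134 to 1.26 and 0.00209 to 0.459 FPKM, overlapped all of these, and in the limma fit without the filter the difference made by TGF-β in EpH4 cells was 0.35 (SE 0.16, adjusted p = 0.285). Prlr was at 0.0248 FPKM in EpH4 replicate 2 (2 reads) and 0.0233 FPKM in EpH4 with TGF-β replicate 1 (1 read), and at 0 in all other libraries. For Prlr a count of 0 allowed at most 0.102 FPKM. No fold is given for either gene.

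Other genes of the pathway gave a mixed picture. Of 26 genes of prolactin receptor and STAT5 signalling 19 were tested, and 3 were called higher and 3 lower in EpRas than in EpH4 cells without TGF-β, and 1 higher and 5 lower with it, with median log2 differences of 0.03 and -0.16 beside -0.00 and -0.01 over all genes, of which 17.6% and 21.3% were called. Among these, Socs3 (higher without TGF-β) was lost in 10 alternative fits, and Cish and Ghr in 0. Cish, a feedback inhibitor that STAT5 induces, was at 5.56 and 5.06 FPKM in EpH4 and 0.998 and 0.997 FPKM in EpRas cells, lower by -1.66 (SE 0.19, adjusted p = 0.00154). Ghr, the growth hormone receptor, which also signals through STAT5, was at 7.29 and 5.91 FPKM in EpH4 and 25.6 and 26.6 FPKM in EpRas cells, higher by 1.84 (SE 0.16, adjusted p = 0.000379). TGF-β, with 9.4% of all genes called in EpH4 and 3.82% in EpRas cells, was followed by 2 calls higher in EpH4 cells, Socs2 at 1.00 and Stat3 at 0.67 (adjusted p = 0.0308 and 0.0360, up to 0.183 and 0.246 in alternative fits), and by 1 call lower in EpRas cells, Socs1 at -1.26 (adjusted p = 0.0290, up to 0.192).

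Of 15 STAT5 target genes 11 were tested, with 1 called higher and 2 lower in EpRas cells without TGF-β and 2 higher and 2 lower with it (17.6% and 21.3% of all genes called), Ccnd2 (cyclin D2) and Cish being the ones lower in both. The calls higher were weak. Socs3 was lost with a replicate block (adjusted p = 0.0801) and without any 1 of the EpH4 or untreated EpRas libraries (0.0649 to 0.217), and Myc and Bcl2l1 were both lost without either library of EpH4 with TGF-β (0.148 and 0.0884 without replicate 1, 0.241 and 0.0898 without replicate 2), which left 0 higher. Ccnd2 fell by 2.69 on the log2 scale without TGF-β (SE 0.16, adjusted p = 6.56e-05), from 9.57 and 7.78 to 0.452 and 0.540 FPKM. In EpH4 cells TGF-β was followed by 1 call higher, Socs2, and 1 lower, Ccnd2 (9.4% of all genes called), the latter lost in 7 alternative fits, among them those without any 1 of the EpH4 libraries (adjusted p = 0.0572 to 0.188), and in EpRas cells by 0 calls (3.82%). Milk and alveolar genes were mostly silent, as 12 of 20 were at 0 in every untransfected library and only 5 were tested. Of the 5, EpRas cells had 1 called higher without TGF-β and 2 with it, and 0 lower, where 17.6% and 21.3% of all genes tested were called. Plin2, a coat protein of lipid droplets, rose from 129 and 131 FPKM in EpH4 to 302 and 334 FPKM in untreated EpRas cells (1.28, SE 0.14, adjusted p = 0.00136), and differed by 1.2 (SE 0.14, adjusted p = 0.00128) under TGF-β. Csn3, which encodes κ-casein, differed under TGF-β by 2.34 (SE 0.36, adjusted p = 0.00413 by limma), from 0 and 0.227 FPKM in EpH4 to 6.97 and 2.93 FPKM in EpRas cells. It entered the test through the library at 6.97 FPKM alone, as all others were under 5 FPKM. TGF-β raised Plin2 in EpH4 cells to 213 and 225 FPKM (0.75, SE 0.14, adjusted p = 0.0208, up to 0.161 in alternative fits). Xdh, which encodes xanthine oxidoreductase of the milk fat globule, was lowered by TGF-β in EpRas cells from 11.3 and 9.76 to 1.76 and 0.990 FPKM (-2.29, SE 0.23, adjusted p = 0.00231) and in EpH4 cells from 6.91 and 9.39 to 2.42 and 3.15 FPKM (-1.27, SE 0.23, adjusted p = 0.0154). The call in EpRas cells was lost when only those 4 libraries were fitted (0.0512), and that in EpH4 cells when EpH4 replicate 2 (0.0992) or either treated EpH4 library (0.144 and 0.0751) was left out.

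In the siRNA libraries both target genes were lower with each pair. In untreated cells the Etv4 level was 57.4 FPKM for siNC, 11.6 for pair 1 and 27.9 FPKM for pair 2, and under TGF-β 64.3, 12.6 and 18.9 FPKM. Etv5 was at 8.85, 1.61 and 1.26 FPKM without and 5.34, 1.24 and 1.2 FPKM with TGF-β. With 1 library for each condition no test was made, and a gene was described as changed where it differed at least 2-fold from siNC in the same direction with both pairs, on FPKM + 1. By this rule 0 of the 7 members changed without TGF-β and 0 with it, where 4.02% and 3.82% of 9094 genes did. Only Gata3, Stat5a and Stat5b reached 5 FPKM and so belong to those genes. The tables of untransfected and siRNA libraries were made separately, and levels are not tested across them.

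**Figure D4:**
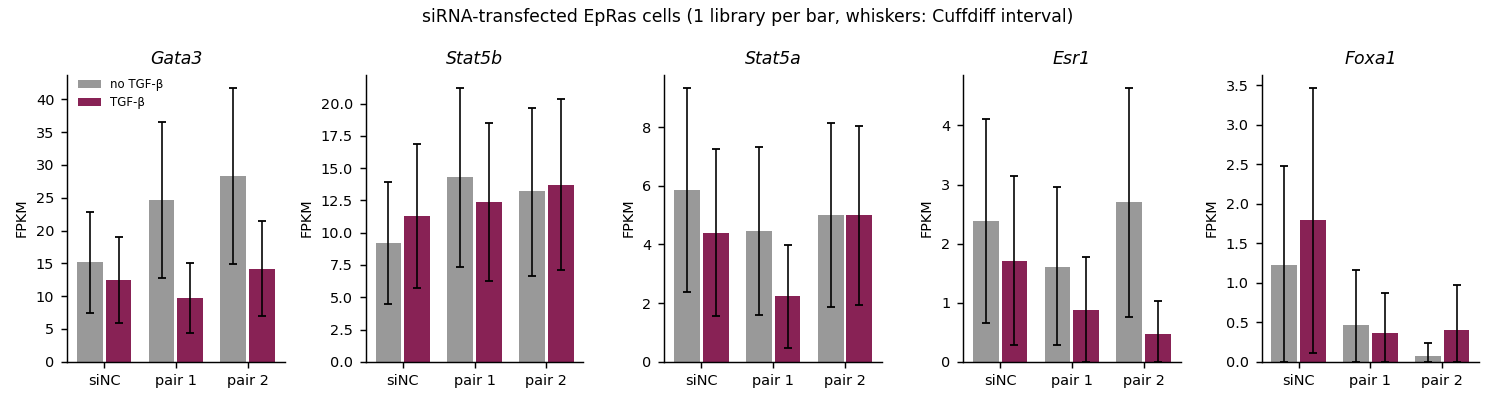
FPKM (vertical axes, linear from 0, a different scale for each gene) of 5 members in EpRas cells with siNC or siRNA pair 1 or 2 against Etv4 and Etv5 (horizontal axes), without (grey) and with TGF-β (purple). Each bar is 1 library and whiskers are the Cuffdiff interval. Foxa1 lies below 0.5 FPKM in all 4 libraries with siRNA pairs and at 1.22 and 1.79 FPKM with siNC.

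Foxa1 came closest to the rule. It was at 1.22 FPKM with siNC, 0.465 with pair 1 and 0.0709 FPKM with pair 2 without TGF-β (27, 14 and 2 reads), and at 1.79, 0.360 and 0.401 FPKM with TGF-β (69, 11 and 11 reads). All 4 libraries with Etv4 and Etv5 siRNAs were thus lower than both siNC libraries. The ratios to siNC were 0.381 (95% exact binomial interval from read numbers 0.185 to 0.753) and 0.0581 (0.00672 to 0.232) without TGF-β, and 0.201 (0.0959 to 0.382) and 0.224 (0.107 to 0.426) with it. On the log2 scale of FPKM + 1 the differences were -0.60 and -1.05 without and -1.04 and -0.99 with TGF-β, short of 2-fold in 1 pair each time. On FPKM + 0.1 both pairs passed 2-fold in both conditions, as did 4.46% and 4.18% of the 11509 genes that reached 1 FPKM, in the same direction. The siNC values, 1.22 and 1.79 FPKM, were above those of the untransfected EpRas libraries (0.257 to 0.936 FPKM, another table), so the siRNA values of 0.0709 to 0.465 FPKM overlapped the untransfected range.

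Gata3 was higher with both pairs than with siNC without TGF-β and not with it. It was at 15.2 FPKM with siNC, 24.7 with pair 1 and 28.3 FPKM with pair 2 (340, 751 and 805 reads), ratios of 1.62 (1.43 to 1.85) and 1.86 (1.64 to 2.12), under 2-fold on FPKM + 1. Both ratios share 1 siNC library. Its value lay below the untransfected EpRas libraries (21.1 and 17.7 FPKM, another table), and those of the pairs lay above them. Under TGF-β its levels were 12.4, 9.75 and 14.2 FPKM (485, 301 and 394 reads), ratios of 0.786 (0.675 to 0.905) and 1.15 (0.996 to 1.3), in opposite directions. TGF-β was followed by lower Gata3 in all 3 conditions, with ratios of 0.816 (0.712 to 0.945) for siNC, 0.395 (0.344 to 0.452) for pair 1 and 0.502 (0.443 to 0.566) for pair 2. With siNC 2.51% of 9094 genes fell 2-fold and Gata3 did not, and only pair 1 passed 2-fold on FPKM + 1 (-1.26 on the log2 scale), where 3.25% of the genes passed in that direction. The lowest untreated siRNA value, 15.2 FPKM with siNC, still lay above the highest treated one, 14.2 FPKM with pair 2.

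Esr1 was also lower with TGF-β in each condition, from 2.39 to 1.71 FPKM with siNC (73 and 91 reads at unequal depth), from 1.61 to 0.877 FPKM with pair 1 (67 and 37 reads) and from 2.70 to 0.476 FPKM with pair 2 (105 and 18 reads). The ratios were 0.715 (0.521 to 0.989), 0.545 (0.354 to 0.825) and 0.176 (0.1 to 0.291). Pair 2 passed 2-fold on FPKM + 1 (-1.33), where 3.21% of the genes passed in that direction. Against siNC, Esr1 with TGF-β was lower with both pairs, at ratios of 0.513 (0.340 to 0.759) and 0.278 (0.157 to 0.464), and without TGF-β the pairs went in opposite directions, at 0.674 (0.477 to 0.953) and 1.13 (0.832 to 1.55).

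Stat5b was at 9.21 FPKM with siNC and 14.3 and 13.2 FPKM with the pairs without TGF-β, ratios of 1.55 (1.35 to 1.77) and 1.43 (1.25 to 1.65), and at 11.3, 12.4 and 13.7 FPKM with TGF-β. Stat5a was at 5.85, 4.46 and 4.99 FPKM without and 4.39, 2.24 and 4.99 FPKM with TGF-β, so the lowest value belonged to pair 1 with TGF-β, and the pair 2 values were equal to 3 digits. Elf5 was at 0.280 FPKM with siNC (4 reads) and 0.152 FPKM with pair 1 and TGF-β (3 reads), and at 0 in the other 4 libraries. Prlr was listed at 0 in all 6. Among the lists, 4 had no tested gene past 2-fold with both pairs in either condition. These were the other luminal transcription factors (11 tested), prolactin and STAT5 signalling (18), the STAT5 targets (10) and the Gata3 partners (6). Over all 9094 genes 4.02% passed without TGF-β and 3.82% with it, so 0 in lists of this size was near that share. Some markers of other cell types passed, with 3 fibroblast and 10 basal markers tested. Pdgfrb, of the fibroblast list, was higher in both conditions, at 1.09 FPKM with siNC and 5.25 and 9.35 FPKM with the pairs in untreated cells and 2.09, 10.1 and 12 FPKM under TGF-β. Of the 10 basal markers tested, Krt14 was higher and Procr and Egfr lower without TGF-β, and Acta2 and Tagln were higher and Procr and Krt17 lower with it. Of the 13 luminal markers tested Ly6a was higher with TGF-β. Their part in the values of the 7 genes was not tested. Xdh, of the milk and alveolar list, was past 2-fold lower with both pairs in both conditions. In untreated cells siNC had 33.0 FPKM and the pairs 6.15 and 12.8 FPKM. Among treated cells the siNC library had 16.4 FPKM and the pairs 0.445 and 2.33 FPKM. Ret, of the estrogen receptor targets, was past 2-fold higher with both pairs among treated cells. There siNC had 4.04 FPKM, pair 1 had 18.4 FPKM and pair 2 had 27.2 FPKM.

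Promoter sequences are shown for Gata3, Stat5b and Foxa1, because Etv4 and Etv5 belong to the ETS family and without TGF-β these members lay on the same side of siNC with both siRNA pairs by more than counting error. This does not show a difference between conditions of 1 library each, and none of them passed the 2-fold rule. Each line gives the 250 bases before the transcription start from RefSeq (GRCm38.p6, the same assembly as mm10), 5′ to 3′ on the strand of the gene, with the ETS letters CCGGAA or their reverse complement in capitals. The windows are chr2:9878601-9878850 (minus strand), chr11:100850582-100850831 (minus strand) and chr12:57546112-57546361 (minus strand).
Gata3: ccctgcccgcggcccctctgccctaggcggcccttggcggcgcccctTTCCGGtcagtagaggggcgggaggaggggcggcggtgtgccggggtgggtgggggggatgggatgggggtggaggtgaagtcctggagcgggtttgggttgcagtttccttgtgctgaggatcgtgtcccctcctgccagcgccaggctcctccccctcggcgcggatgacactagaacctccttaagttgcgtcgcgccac
Stat5b: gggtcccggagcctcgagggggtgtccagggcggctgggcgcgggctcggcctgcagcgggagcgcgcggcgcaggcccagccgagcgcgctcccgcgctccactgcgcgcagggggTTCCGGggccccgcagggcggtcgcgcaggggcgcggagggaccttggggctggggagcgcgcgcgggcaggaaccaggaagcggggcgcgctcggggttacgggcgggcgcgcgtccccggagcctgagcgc
Foxa1: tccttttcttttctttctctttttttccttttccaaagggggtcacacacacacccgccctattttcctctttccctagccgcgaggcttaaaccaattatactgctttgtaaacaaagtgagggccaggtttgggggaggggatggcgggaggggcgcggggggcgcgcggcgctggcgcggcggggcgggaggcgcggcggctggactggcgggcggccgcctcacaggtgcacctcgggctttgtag
The Gata3 match begins 203 bases and the Stat5b match 133 bases before the start, and the Foxa1 window held none. Of the 13 such windows that RefSeq gives for the 7 members, these 2 held the letters, as did 12% of 32851 mouse windows. The other motifs searched, on both strands, were AP-1 (TGANTCA, 6.75% of all windows), RUNX (TGTGGT, 14%), Smad (GTCTG, 42.2%) and STAT (TTCNNNGAA, 7.02%). None of these 4 was in the printed windows. The window of a further Stat5b start, chr11:100822571-100822820, is not printed. It held 0 ETS and 2 Smad matches. A match describes letters only, and no binding was measured here.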

How the data were processed

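RNA-seq libraries (14) of EpH4 and EpRas cells were made by the authors from poly(A) RNA with a directional kit and sequenced on the Ion Proton. The untransfected and the siRNA-transfected samples were processed independently. According to the methods and the submitters' processing notes, reads were aligned to mm10 with TopHat2 2.0.11 and Bowtie2 2.2.2.2, and expression was calculated with Cuffdiff of Cufflinks 2.2.0. The FPKM deposited by the authors, with both ends of the Cuffdiff interval, are scaled to gene length and library total, so a rise of abundant genes lowers all others. All columns of sample values could be mapped to samples (0 were not).

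Genes without an OK status (3 and 2 in the 2 tables) were left out, and 9100 genes reaching 5 FPKM in the untransfected table were compared with limma 3.58.1 (R 4.3.3) on log2(FPKM + 1), all 8 libraries entering 1 model with a mean for each group, two-sided, with Benjamini-Hochberg adjustment and a threshold of 0.05. The 2 libraries a group are biological replicates by the study's account. Each p-value rests on a spread between replicates that is shared by all groups and drawn towards that of all tested genes. The spread was unequal, with a median SD on log2(FPKM + 1) from 0.0914 in EpH4 with TGF-β to 0.214 in EpRas with TGF-β. Both calls of Gata3 involve the latter group. The siRNA libraries (1 per condition) were compared by ratios. Read numbers were recovered from the steps of the FPKM where all libraries gave whole numbers within 0.02, and give exact 95% Poisson or binomial intervals; they are the smallest numbers that fit and hold any scaling by Cuffdiff. Both procedures were tested on simulated data. The simulation for limma gave all groups the same spread, unlike the libraries here. Depth in reads is not stated in the tables.

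The 7 genes and the gene lists were chosen with earlier results of these data known. Genes named outside the 7 are at most the 4 called ones with the largest change per list and comparison, Etv4 and Etv5, and the 3 genes nearest to each tested member by Pearson's r, with microRNA, snoRNA and predicted genes left aside and some genes not reported here; members of lists named for being at or near 0 or for their level were chosen after their values were seen. Alternatives were pseudocounts of 0.1 and 5, no filter or a filter at 1 FPKM, median and quantile scaling, an intensity trend, a replicate block, a fit of the groups compared alone, the Tukey-Kramer test named in the methods, and each library left out.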

Additional observations from a re-analysis of the deposited data

Results flagged for a closer look

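The effect of TGF-β differed between the lines by the interaction term of limma for 6 marker genes (1 of 13 luminal, 2 of 10 basal and 3 of 3 fibroblast markers tested, beside 0.802% of all genes), in each case more negative in EpRas than in EpH4 cells. For Krt7, a luminal keratin, the difference was -1.87 on the log2 scale (adjusted p = 0.0491), with 2550 and 3420 FPKM in EpH4, 5180 and 4940 in EpH4 with TGF-β, 2280 and 1910 in EpRas and 845 and 1120 FPKM in EpRas with TGF-β. For Krt14, a basal keratin, it was -1.98 (adjusted p = 0.0127), and for Acta2, smooth muscle actin, -2.38 (adjusted p = 0.0172). For the fibroblast markers it was -3.12 for Col1a1 (adjusted p = 0.00729), -2.80 for Pdgfrb (adjusted p = 0.00636) and -2.24 for Col1a2 (adjusted p = 0.0177). Each of the 6 calls was lost in 4 or more of 17 alternative fits, with adjusted p up to 0.275 for Krt7 and 0.0719 for Col1a1.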

How the results depend on the processing

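The number of members called by limma was 1 for EpRas against EpH4 cells with TGF-β and 0 for both the comparison without TGF-β and TGF-β in EpH4 cells under each alternative run. The call of Gata3 for TGF-β in EpRas cells (1 member) was lost with a replicate block (0 members), with only the groups compared (0), by the Tukey-Kramer test (0) and in 7 of 8 fits without 1 library (range 0 to 1). Same-numbered libraries deviated together in no consistent way (correlations from -0.347 to 0.0785), so the numbers were not taken as pairs. The block changed none of the other 14 of 15 member results, and moved the calls over all genes for TGF-β in EpH4 from 855 to 547, in EpRas from 348 to 222 and for their difference from 73 to 31. With the EpRas numbers crossed, chosen after seeing the data, the members called were 1 for EpRas against EpH4 with TGF-β, 1 for TGF-β in EpRas and 0 in the other comparisons. With only the groups compared, 45 genes were called for TGF-β in EpRas. Without 1 library the calls ranged from 733 to 2064 (main 1598) and 822 to 2384 (1935) between the lines without and with TGF-β, 239 to 1085 for TGF-β in EpH4, 127 to 413 in EpRas and 10 to 127 for their difference. That difference had 117 calls without a filter and 45 with an intensity trend. The cause was not tested.

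Small differences reversed when a library was left out. The ranges were -0.21 to 0.035 for Gata3, -0.20 to 0.28 for Stat5a and -0.43 to 0.047 for Stat5b between the untreated lines, -0.17 to 0.069 for Stat5b between the treated lines, -0.049 to 0.30 for Gata3 and -0.32 to 0.16 for Stat5b for TGF-β in EpH4, -0.059 to 0.18 for Stat5b for TGF-β in EpRas and -0.10 to 0.38 for Stat5b for the difference between the lines. In the siRNA libraries the members past 2-fold, 0 without and 0 with TGF-β, became 2 (Foxa1 and Elf5) and 1 (Foxa1) on FPKM + 0.1. Without TGF-β pair 2 alone gave 1, and with TGF-β pair 1 alone and median scaling gave 1 each. The contrasts of TGF-β past 2-fold in the 3 siRNA conditions were 2 in the main setting, 5 on FPKM + 0.1 and 1 on FPKM + 5. Esr1, Foxa1, Elf5 and Prlr were under the filter and had at most 105 reads in any library. The part of depth in this was not tested.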

Other observations

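Of 22 markers of luminal cells other than transcription factors 13 were tested, and in EpRas against EpH4 cells limma called 2 higher and 4 lower without TGF-β and 3 higher and 7 lower with it, with median log2 differences of -0.54 and -1.34 beside -0.00 and -0.01 over all genes, of which 17.6% and 21.3% were called. Among those lower was the tight junction gene Cldn4 (-1.80 and -2.78, adjusted p = 0.0222 and 0.00300). Under TGF-β they included Lcn2 (-3.93, adjusted p = 0.000319) and Epcam (-2.42, adjusted p = 0.00453). Of the 4 called lower without TGF-β, Cldn4 and Ly6a (-1.65, adjusted p = 0.0185 by limma) were both lost without any 1 of the 4 untreated libraries. Besides these, alternative fits were looked at for Cldn7 only, which was lost in 0. Krt19, listed at 0 in all EpH4 libraries, was called higher both without and with TGF-β (adjusted p = 2.29e-05 and 2.84e-05). TGF-β was followed by 0 calls higher and 1 lower among them in EpH4 cells and by 1 higher and 3 lower in EpRas cells. All 4 calls in EpRas cells (Areg, Lcn2, Ly6a and Krt7) were lost when only those libraries were fitted (adjusted p = 0.0967 to 0.189), and the call of Ly6a in EpH4 cells was lost without EpH4 with TGF-β replicate 1 (0.0643). Over all genes 9.4% and 3.82% were called for TGF-β in the 2 lines. Of 22 basal and myoepithelial markers 10 were tested, with 4 called higher and 4 lower in EpRas cells without TGF-β and 2 higher and 4 lower with it. Vim was higher by 9.13 and 8.68 (adjusted p = 2.85e-06 and 2.68e-06), while Krt17 (-4.02 and -4.38, adjusted p = 2.20e-05 and 1.30e-05), Trp63 (-3.03 and -2.60, adjusted p = 4.11e-05 and 6.71e-05) and Krt14 (-1.69 and -3.67, adjusted p = 0.000545 and 1.35e-05) were lower. After TGF-β 4 basal markers were called higher and 0 lower in EpH4 cells. Of these, Krt14 lost the call without EpH4 with TGF-β replicate 1 (adjusted p = 0.0587), and Itgb4 and Krt17 lost the call with a replicate block and without any 1 of the EpH4 libraries (adjusted p up to 0.181 and 0.186), and Krt17 also on FPKM + 0.1 (0.419). In EpRas cells 0 were called higher and 1 lower, Krt14 at -0.78 (adjusted p = 0.0420), a call lost in 14 alternative fits (up to 0.217). In the siRNA libraries Acta2 was at 0.490 FPKM with siNC and TGF-β, 202 FPKM with pair 1 and 13.2 FPKM with pair 2, so that the pairs differed between themselves; without TGF-β the values were 0.512, 23.4 and 0.201 FPKM.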
